A study of Homo sapiens with 12 samples.

Results

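The fibrillar collagen genes encode the chains of the collagens that assemble into fibrils in bone, skin and vessel walls. The 7 genes described here, COL1A1, COL1A2, COL3A1, COL5A1, COL5A2, COL5A3 and COL11A1, were taken by symbol, as the rows of the count table whose Ensembl identifier carries one of these symbols in the GENCODE annotation. They are 7 of 25141 genes in the table, and all 7 passed the filter on low counts, which kept 12542 genes. All 12 libraries, 3 in each of 4 groups, came from HOS, an osteosarcoma cell line of human origin. For upCIN85, cells were transfected with pRc/CMV2-Rukl, a plasmid encoding CIN85 in full length, and kept as a pool resistant to geneticin (G418). Mock denotes the same with an empty vector. For siCIN85, a mixture of siRNAs targeting CIN85 was used, and for siNeg a non-targeting siRNA. CIN85 is an adaptor protein, the product of SH3KBP1, and the study asked how its level bears on the motility of these cells. Nothing in the labels says that the libraries of a group came from separate cultures, so P-values measure the spread between these libraries, which may be technical.

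A fibrillar collagen is made as a procollagen, in which the polypeptide chains are wound into a long helix flanked by propeptides. Type I collagen, the main protein of bone, is usually built from COL1A1 and COL1A2 chains, and type III collagen from COL3A1 chains alone. The type V chains (COL5A1, COL5A2, COL5A3) and the type XI chain COL11A1 are minor partners that enter the same fibrils and are known to set where fibrils start and how thick they grow. The chains are hydroxylated and folded in the endoplasmic reticulum, exported, trimmed outside the cell and crosslinked by lysyl oxidases. Osteosarcoma cells are of mesenchymal origin, and many produce a collagen-rich matrix.

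Total counts were 5334731 to 5774968 per library in Mock and 5726535 to 6049458 in upCIN85, and 4011368 to 4174860 in siNeg and 3540641 to 3991517 in siCIN85. SH3KBP1 stood at 85.1 ± 2.37 CPM (counts scaled to library size by the TMM method; SD, n = 3) in siNeg and at 7.54 ± 3.19 in siCIN85, a log2 fold change (log2FC) of -3.51 with an adjusted P of 5.09e-08 in edgeR's quasi-likelihood test. It stood at 77.5 ± 5.0 CPM in Mock and 81.3 ± 9.61 in upCIN85 (log2FC 0.07, adjusted P 0.887). The RNA counts therefore did not show the overexpression that the label states. The study reports overexpression of the full-length form and checked CIN85 protein in the resistant pool by western blotting, which these counts do not measure. Whether tags of the plasmid's transcript were counted under SH3KBP1 is not given in the sources used here. Every direction below is therefore one of the libraries labelled upCIN85. The mesenchymal and osteoblast markers summed to between 709 and 924 CPM in every library, 6 of the 10 with at least 10 counts throughout. The largest part was VIM, a mesenchymal marker, with group means of 479 to 617 CPM. IBSP, a bone matrix protein, had at most 1 count. Endothelial markers summed to at most 9.86 CPM and blood cell markers to at most 2.31 CPM. Of 6 epithelial markers 4 were measured, and their sum was 71.5 to 84.2 CPM in upCIN85 against 51.4 to 56.3 in Mock, 50.6 to 60.9 in siNeg and 46.6 to 56.0 in siCIN85, most of it EPCAM. Their part in the differences below was not tested.

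Among the Mock and upCIN85 libraries, replicate 2 of upCIN85 stood apart for these genes. It had the lowest level of its group for COL1A1, COL1A2, COL3A1, COL5A1, COL5A2 and COL5A3, and over all genes it lay farther from its group mean (0.259 log2 units, root mean square) than any other Mock or upCIN85 library (0.200 to 0.241), although the siRNA libraries spanned 0.236 to 0.294. The upCIN85 results of COL1A1, COL1A2 and COL3A1 are therefore given with and without it.

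The 7 genes lie on 6 chromosomes (GRCh38). COL1A1 occupies 17:50183289-50201632 on the minus strand and COL1A2 7:94394561-94431232 on the plus strand, so the chains of type I collagen come from separate loci. COL3A1 (2:188974320-189012746, plus strand) and COL5A2 (2:189031896-189225312, minus strand) are neighbours that point at each other, with 19149 bp between their 3′ ends. COL5A1 lies at 9:134641774-134844843 on the plus strand, COL5A3 at 19:9959561-10010471 and COL11A1 at 1:102876467-103108872, both on the minus strand. Libraries were made from the 3′ ends of transcripts. The strand setting of the counting is not given in the sources used here, so reads of annotated antisense genes that overlap COL1A2, COL5A1, COL5A2 and COL5A3 cannot be told apart from those of the collagen gene.

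COL3A1 is the member with the lowest log2FC in the knockdown below, and the study also measured it by PCR. The PCR primers are shown because they locate the part of the transcript that assay reads, apart from the 3′ tags counted here.

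COL3A1 forward primer: cggaaacactggtggacaga

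COL3A1 reverse primer: gtagtctcacagccttgcgt

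Both 20-base primers match transcript COL3A1-201 (5543 bases) without a mismatch, at bases 4104 to 4123 and 4469 to 4488, and enclose 385 bases. On the genome this amplicon runs within 2:189010288-189011691, from exon 49 to exon 51 of 51, inside the coding sequence, and ends 1055 bases before the 3′ end of the transcript.

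The RefSeq promoter table (GRCh38.p14) matched 3 of the 7 genes, COL5A1, COL5A3 and COL11A1. The stretches upstream of COL5A1 and COL5A3 are shown, which both encode type V chains whose ratio is given below. COL11A1 is not shown, since too few bases before its RefSeq start lay outside its annotated transcripts. Both strands were searched for 3 strings known from promoters. The TATA box was searched as TATAAA. The CCAAT box was searched by its name. The GC box was searched as GGGCGG. Capitals mark each match in either orientation, so a GC box on the other strand reads CCGCCC.

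COL5A1, chr9:134641553-134641773, plus strand: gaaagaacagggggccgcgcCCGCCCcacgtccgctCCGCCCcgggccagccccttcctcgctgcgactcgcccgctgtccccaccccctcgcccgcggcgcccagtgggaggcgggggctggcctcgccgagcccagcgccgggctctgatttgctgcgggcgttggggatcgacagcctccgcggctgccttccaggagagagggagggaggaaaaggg

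COL5A3, chr19:10010505-10010754, minus strand: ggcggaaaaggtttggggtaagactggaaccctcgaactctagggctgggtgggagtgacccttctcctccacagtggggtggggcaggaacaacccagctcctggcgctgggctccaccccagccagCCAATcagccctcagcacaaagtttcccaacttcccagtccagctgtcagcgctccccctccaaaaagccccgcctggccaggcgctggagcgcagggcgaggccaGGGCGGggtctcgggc

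The 221 bases of COL5A1 held 2 matches to GGGCGG and none to CCAAT, with a GC content of 75.6%. The 250 bases of COL5A3 held 1 match to CCAAT and 1 to GGGCGG, with a GC content of 66%. Neither held TATAAA. Among 35116 promoters of the same table, 250 bases each, 10.7% held TATAAA, 32% CCAAT and 42.6% GGGCGG, so GGGCGG is a common string in such windows.

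COL1A1, the major chain of type I collagen, was the most counted fibrillar collagen gene in all 12 libraries, with 57.6% to 70.8% of the reads of the 7 genes. Together the 7 genes took 0.113% ± 0.0304 of a library in Mock and 0.165% ± 0.0440 in upCIN85, and 0.112% ± 0.0131 in siNeg and 0.0643% ± 0.0150 in siCIN85 (SD, n = 3). In single libraries this share was 0.145%, 0.108% and 0.0845% in Mock and 0.185%, 0.114% and 0.194% in upCIN85. It was 0.117%, 0.123% and 0.0977% in siNeg and 0.0766%, 0.0688% and 0.0476% in siCIN85. The siCIN85 libraries lay below all others, and the upCIN85 libraries overlapped those of Mock.

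Levels of different genes were set side by side as CPM per kilobase of exon, and as CPM where the order differed. The kit reads each transcript near its end, so counts should not scale with length and the order in CPM is the safer one. COL1A1 led with 74.2 CPM per kb in Mock and 43.6 in siCIN85. In Mock, COL5A2 (17.9 CPM per kb) and COL3A1 (17.0) followed and did not differ beyond their spread, then COL1A2 (5.13) and COL5A1 (4.91), which also overlapped, then COL11A1 (2.56) and COL5A3 (1.32). In upCIN85, COL3A1 stood second with 31.3 CPM per kb, above COL5A2 (14.1) in 3 of 3 libraries, and COL1A2 (13.0) reached COL5A2. In siCIN85, COL3A1 (5.75) stood below COL5A2 (12.6) with no overlap, and COL1A2 (1.86) stood after COL5A1 (2.83) and COL11A1, although these neighbours were close, since the ranges of COL5A1 and COL11A1 overlapped, as did those of COL11A1 and COL1A2. In CPM the order was reversed for 2 of these pairs: COL1A2 stood above COL5A2 in upCIN85 (145 against 105 CPM) and beside COL11A1 in siCIN85 (20.7 against 20.4 CPM).

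**Figure D1:**
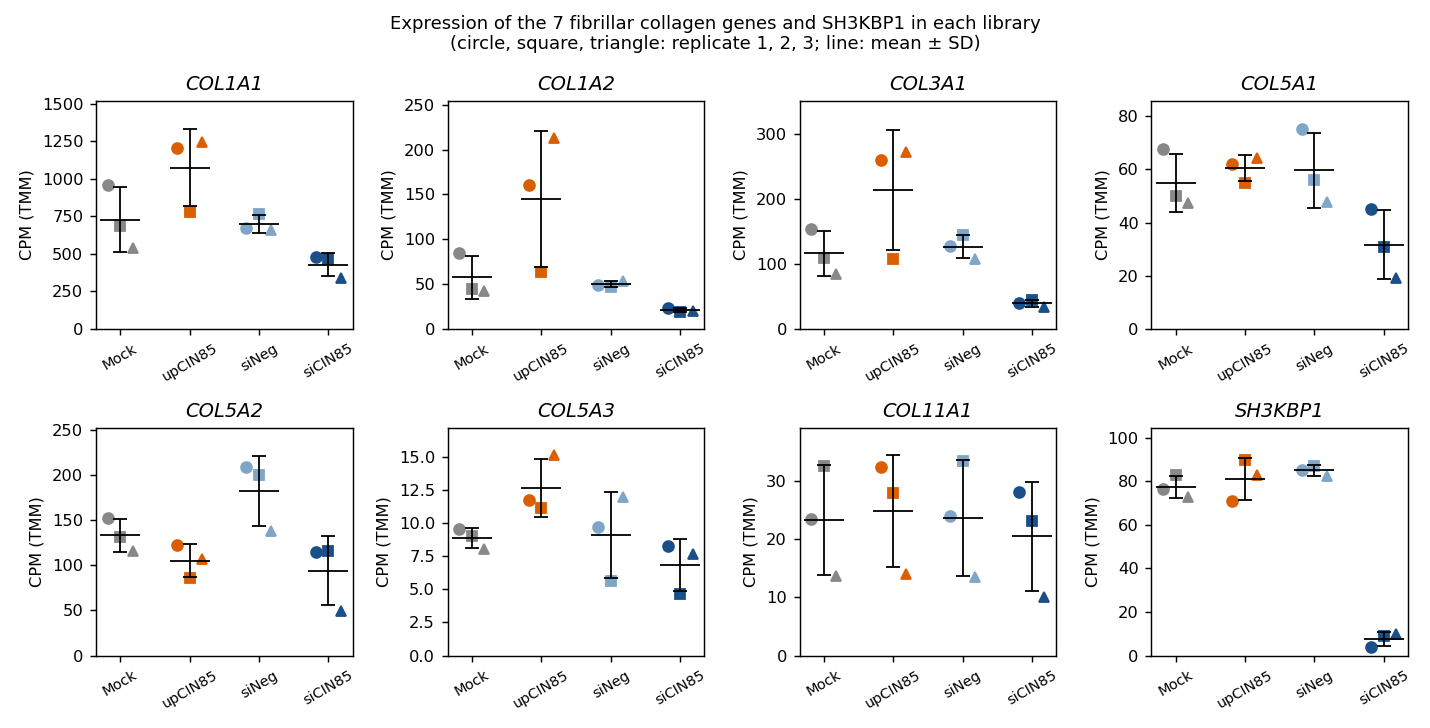
CPM (TMM-normalized, linear axes from 0) of the 7 fibrillar collagen genes and SH3KBP1 in the 12 libraries; circles, squares and triangles are replicates 1, 2 and 3, and lines are the group mean ± SD (n = 3). COL3A1 was 33.3 to 44.0 CPM in siCIN85 and at least 84.35 CPM in every other library, and replicate 3 was the lowest COL11A1 library in all 4 groups.

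The knockdown comparison asks which of these genes change when CIN85 is silenced. COL3A1, the chain of type III collagen, fell 3.23-fold in siCIN85. All 7 genes had a negative log2FC, with a median of -0.91 against -0.01 over all genes tested, and 50.8% of all genes were negative. Of the 7, 1 passed an adjusted P of 0.05, where 1.04% of all 12542 genes passed in either direction and 0.454% passed as lower. The siCIN85 libraries lay wholly below the siNeg libraries for 5 of the 7 (COL1A1, COL1A2, COL3A1, COL5A1, COL5A2), as they did for 10.2% of all genes. In bulk RNA a smaller number of cells that express a gene and less RNA per cell cannot be told apart.

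COL3A1 measured 128, 144 and 107 CPM in siNeg replicates 1 to 3 and 40.3, 44.0 and 33.3 CPM in siCIN85. The groups were far apart, with a gap larger than the range of either. The log2FC was -1.69 (SE 0.290, 95% interval -2.30 to -1.08, adjusted P 0.013, edgeR), the 22nd lowest log2FC of 12542. The call was lost without siNeg replicate 2 (adjusted P 0.0604), siCIN85 replicate 1 (0.0967) or siCIN85 replicate 3 (0.0665), while the log2FC stayed between -1.80 and -1.60 over all libraries left out in turn.

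For type I collagen, COL1A1 measured 674, 768 and 655.5 CPM in siNeg and 481.5, 466.5 and 337 in siCIN85, a log2FC of -0.71 (SE 0.196, adjusted P 0.0903). COL1A2, the second chain, measured 49.2, 46.7 and 53.65 CPM in siNeg and 23.5, 18.8 and 19.8 in siCIN85, a log2FC of -1.26 (SE 0.363, adjusted P 0.101). Both chains were lower in every siCIN85 library than in any siNeg library, and neither passed the threshold in this fit. In DESeq2 on 12 libraries COL1A1 passed (adjusted P 0.0189) and COL1A2 did not (0.096). COL1A2 passed in a fit of the 6 knockdown libraries alone (adjusted P 0.0094) and without upCIN85 replicate 2 (0.0168).

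Of the type V chains, COL5A1 measured 75.2, 56.0 and 47.7 CPM in siNeg and 45.1, 30.9 and 19.0 in siCIN85 (log2FC -0.91, SE 0.238, adjusted P 0.0734). COL5A2 measured 209, 200.1 and 138 CPM in siNeg and 115, 116.5 and 49.6 in siCIN85 (log2FC -0.96, SE 0.238, adjusted P 0.061). In both groups replicate 3 was the lowest for both genes, and the groups did not overlap. COL5A1 passed without siNeg replicate 3 (adjusted P 0.0417), and COL5A2 passed without siNeg replicate 3 (0.0282) or siCIN85 replicate 2 (0.0287). In DESeq2 on 12 libraries COL5A1 passed (0.0107) and COL5A2 did not (0.0796). Both passed in edgeR with a replicate block over all 12 libraries (0.0215 and 0.0207). COL5A3, a less abundant chain, measured 9.75, 5.62 and 11.98 CPM in siNeg and 8.25, 4.63 and 7.66 in siCIN85, with overlapping groups (log2FC -0.39, SE 0.285, adjusted P 0.525). COL11A1 measured 24.0, 33.5 and 13.5 CPM in siNeg and 28.15, 23.1 and 10.03 in siCIN85, also overlapping (log2FC -0.21, SE 0.394, adjusted P 0.837). At these levels the 95% intervals of COL5A3 (-0.995 to 0.21) and COL11A1 (-1.04 to 0.62) both included 0.

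In siNeg and siCIN85, libraries with the same number moved together around their group means. The knockdown was therefore also fitted with a replicate block for these 6 libraries. This pairing was read from the same data, since the labels give only replicate numbers. With this pairing 4 of the 7 genes fell: COL1A1 (log2FC -0.72, adjusted P 0.0353), COL3A1 (-1.69, 0.00337), COL5A1 (-0.95, 0.00372) and COL5A2 (-1.02, 0.0017). In this fit 3.42% of all genes passed and 1.89% passed as lower. COL1A2 did not pass (-1.26, adjusted P 0.0684), nor did COL5A3 (0.369) or COL11A1 (0.754).

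**Figure D2:**
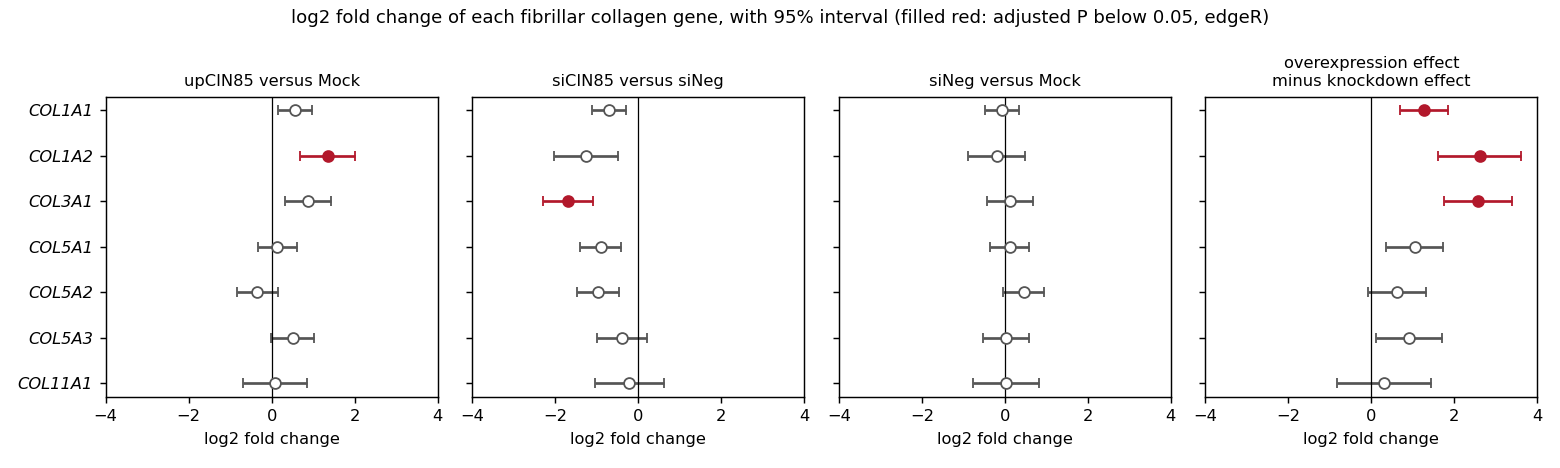
log2 fold change (x axis) of each fibrillar collagen gene with its 95% interval, for upCIN85 versus Mock, siCIN85 versus siNeg, siNeg versus Mock and the difference between the first 2 effects, from edgeR on 12 libraries (3 per group) without the block; filled red points had an adjusted P below 0.05. COL1A2 passed in upCIN85 (1.35), COL3A1 in siCIN85 (-1.69), and COL1A1, COL1A2 and COL3A1 in the difference.

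The comparison of upCIN85 with Mock asks whether the same genes differ in the cells transfected with the CIN85 plasmid. COL1A2 rose 2.54-fold in the libraries labelled upCIN85. The log2FC was positive for 6 of the 7 genes, with a median of 0.51 against 0.01 over all genes tested, and 51.1% of all genes were positive. Of the 7, 1 passed an adjusted P of 0.05, where 1.23% of all genes passed in either direction and 0.439% as higher. The upCIN85 libraries lay wholly above those of Mock for 1 of the 7 genes, COL5A3, as they did for 9.74% of all genes.

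COL1A2 measured 84.8, 44.8 and 41.9 CPM in Mock and 160.3, 62.9 and 212.5 CPM in upCIN85. Replicate 2 of upCIN85 lay below replicate 1 of Mock, so the groups overlapped. The log2FC was 1.35 (SE 0.314, 95% interval 0.69 to 2.01, adjusted P 0.0439, edgeR). It was 1.71 (adjusted P 0.00108) without upCIN85 replicate 2, whose omission had to raise it. The call was lost without Mock replicate 2 (adjusted P 0.201), Mock replicate 3 (0.193), upCIN85 replicate 1 (0.111), upCIN85 replicate 3 (0.253), siNeg replicate 2 (0.0524) or siCIN85 replicate 1 (0.0578), and in a fit of the 6 libraries alone (0.0568) and in DESeq2 on 12 libraries (0.0619).

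COL1A1 measured 961, 685 and 539.8 CPM in Mock and 1204, 777 and 1243 in upCIN85 (log2FC 0.56, SE 0.194, adjusted P 0.165). COL3A1 measured 154, 109.5 and 84.35 CPM in Mock and 259.8, 107 and 272.5 in upCIN85 (log2FC 0.88, SE 0.261, adjusted P 0.101). In both genes upCIN85 replicates 1 and 3 lay above every Mock library and replicate 2 did not. Without that replicate the adjusted P was 0.0482 for COL1A1 (log2FC 0.75) and 0.00314 for COL3A1 (1.20). Since the library was singled out for its low levels of these genes, leaving it out had to raise their upCIN85 means, and these values are a description only.

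The type V and XI chains were closer between the groups. COL5A1 measured 67.5, 50.1 and 47.2 CPM in Mock and 62.1, 54.9 and 64.4 in upCIN85 (log2FC 0.14, 95% interval -0.33 to 0.61, adjusted P 0.825). COL5A2 alone had a negative log2FC, at 153, 131 and 116 CPM in Mock and 122, 86.1 and 107 in upCIN85 (-0.34, 95% interval -0.83 to 0.15, adjusted P 0.534). COL5A3 measured 9.59, 8.997 and 8.07 CPM in Mock and 11.7, 11.1 and 15.1 in upCIN85, without overlap (log2FC 0.51, adjusted P 0.351). COL11A1 measured 23.5, 32.6 and 13.7 CPM in Mock and 32.35, 27.9 and 13.9 in upCIN85 (log2FC 0.09, adjusted P 0.94). None of these 4 genes passed in any of the 24 alternative fits of this comparison.

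**Figure D3:**
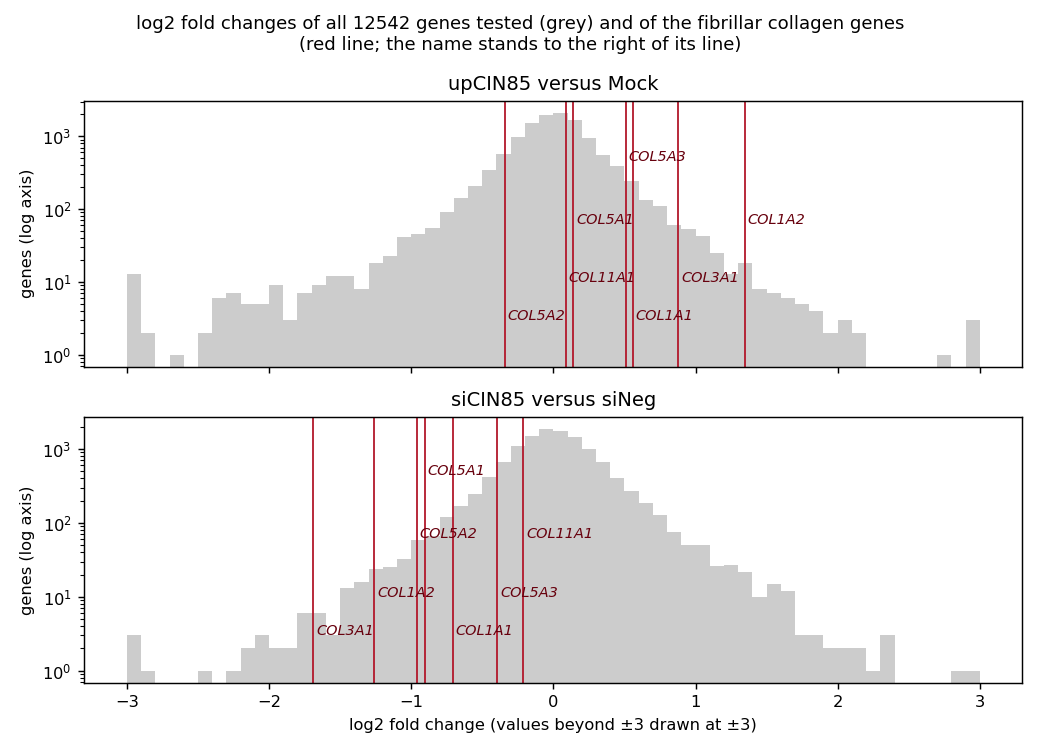
Distribution of log2 fold changes over the 12542 genes tested (grey bars, number of genes on a log axis, values beyond 3 drawn at 3) for upCIN85 versus Mock and siCIN85 versus siNeg, with each fibrillar collagen gene as a red line. In the knockdown all 7 lines lie left of 0, from -1.69 to -0.21, and in upCIN85 they run from -0.34 to 1.35.

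The difference between the 2 effects, tested as a contrast of all 4 groups, asks whether upCIN85 and siCIN85 moved a gene apart. It was positive for all 7 genes, with a median of 1.05 against 0.01 over all genes tested. COL1A1, COL1A2 and COL3A1 passed, 3 of 7, where 0.973% of all genes passed and 0.287% passed in the positive direction. COL1A2 differed by 2.61 log2 units (SE 0.479, adjusted P 0.0151), COL3A1 by 2.57 (SE 0.390, adjusted P 0.0044) and COL1A1 by 1.27 (SE 0.276, adjusted P 0.0381). The type V and XI chains differed less and did not pass. COL5A1 differed by 1.05 (adjusted P 0.131), COL5A3 by 0.90 (0.275), COL5A2 by 0.62 (0.416) and COL11A1 by 0.30 (0.86). With the block in the knockdown COL5A1 passed as well (1.09, adjusted P 0.0114), in a fit where 2.93% of all genes passed. COL3A1 passed in each of the 21 alternatives tried. COL1A2 was lost without Mock replicate 2 (adjusted P 0.06), Mock replicate 3 (0.0545) or upCIN85 replicate 3 (0.0526). COL1A1 kept its call in 4 of the 12 fits with 1 library left out, being lost without Mock replicate 2 (adjusted P 0.106) or 3 (0.0878), upCIN85 replicate 1 (0.0918) or 3 (0.123), siNeg replicate 1 (0.0557) or 2 (0.0832), or siCIN85 replicate 1 (0.0654) or 3 (0.0663).

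The control groups differ in what was transfected, plasmid or siRNA, and selection with geneticin is described for Mock and not for siNeg. Mock libraries also had higher total counts. The parts of these in a difference between the controls cannot be told apart. None of the 7 genes passed between siNeg and Mock, where 0.526% of all genes passed. At an unadjusted P of 0.05 none passed either, where 6.77% of all genes passed as higher and 5.67% as lower, and DESeq2 on 12 libraries called none of the 7 and 1.66% of the 11001 genes it gave an adjusted P. The log2FC values ran from -0.20 (COL1A2) to 0.45 (COL5A2, adjusted P 0.437), and the libraries of the control groups overlapped for each gene.

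Ratios between chains were read within each library, which leaves out the library's depth and normalization. For type I collagen, the count ratio of COL1A1 to COL1A2 was 11.3, 15.3 and 12.9 in Mock and 7.51, 12.35 and 5.85 in upCIN85. It was 13.7, 16.5 and 12.2 in siNeg and 20.45, 24.8 and 17.0 in siCIN85. Every siCIN85 library held more COL1A1 per COL1A2 read than any other library. The geometric mean ratio was 13.1 in Mock and 8.16 in upCIN85, and 14.0 in siNeg and 20.5 in siCIN85, or 14.9, 9.27, 15.9 and 23.3 after dividing each count by exon length. The ratio was 1.46-fold higher in siCIN85 than in siNeg, and a two-sided exact permutation test gave P = 0.1, the smallest that 3 against 3 libraries allow (adjusted P 0.3 over 21 ratio tests). In upCIN85 it was 1.60-fold lower than in Mock, with overlapping libraries (exact P = 0.2, adjusted 0.35).

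COL3A1 against COL1A1, type III against type I, was the steadiest ratio in Mock, at 0.160, 0.160 and 0.156. It was 0.190, 0.187 and 0.164 in siNeg and 0.0837, 0.0942 and 0.0987 in siCIN85, so the knockdown libraries lay apart by a gap wider than either group. The geometric mean was 0.180 in siNeg and 0.0920 in siCIN85, a 1.96-fold lower ratio (exact permutation P = 0.1, adjusted 0.3). The siNeg libraries also lay wholly above the Mock libraries, by 1.13-fold (exact permutation P = 0.1, adjusted 0.3). In upCIN85 the ratio was 0.216, 0.137 and 0.219, above Mock in replicates 1 and 3 and below it in replicate 2 (exact P = 0.4).

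Within type V collagen, COL5A1 to COL5A2 was 0.442, 0.382 and 0.406 in Mock and 0.508, 0.638 and 0.601 in upCIN85, 1.41-fold higher without overlap. It was 0.359, 0.280 and 0.345 in siNeg and 0.392, 0.265 and 0.383 in siCIN85, a ratio of 1.05 between the groups with overlap. The siNeg libraries also lay below the Mock libraries (1.26-fold). COL5A3 to COL5A1 was 1.27-fold higher in upCIN85 than in Mock without overlap, from 0.142 to 0.180 in Mock and from 0.189 to 0.235 in upCIN85. It was 1.5-fold higher in siCIN85 than in siNeg, in 3 of 3 same-numbered pairs but with overlapping groups (exact permutation P = 0.4, adjusted 0.56). COL5A2 to COL3A1, neighbours on chromosome 2, was 0.994 to 1.38 in Mock and 0.394 to 0.807 in upCIN85, 2.22-fold lower without overlap, and 1.29 to 1.64 in siNeg and 1.49 to 2.86 in siCIN85. The last 2 groups overlapped, with a higher ratio in siCIN85 in 3 of 3 same-numbered pairs (1.57-fold, unpaired exact permutation P = 0.2, adjusted 0.35). Of the 21 ratio tests, 7 in each of 3 comparisons, none can pass at 3 against 3 libraries, and the separated ratios each had the smallest exact P of 0.1.

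**Figure D4:**
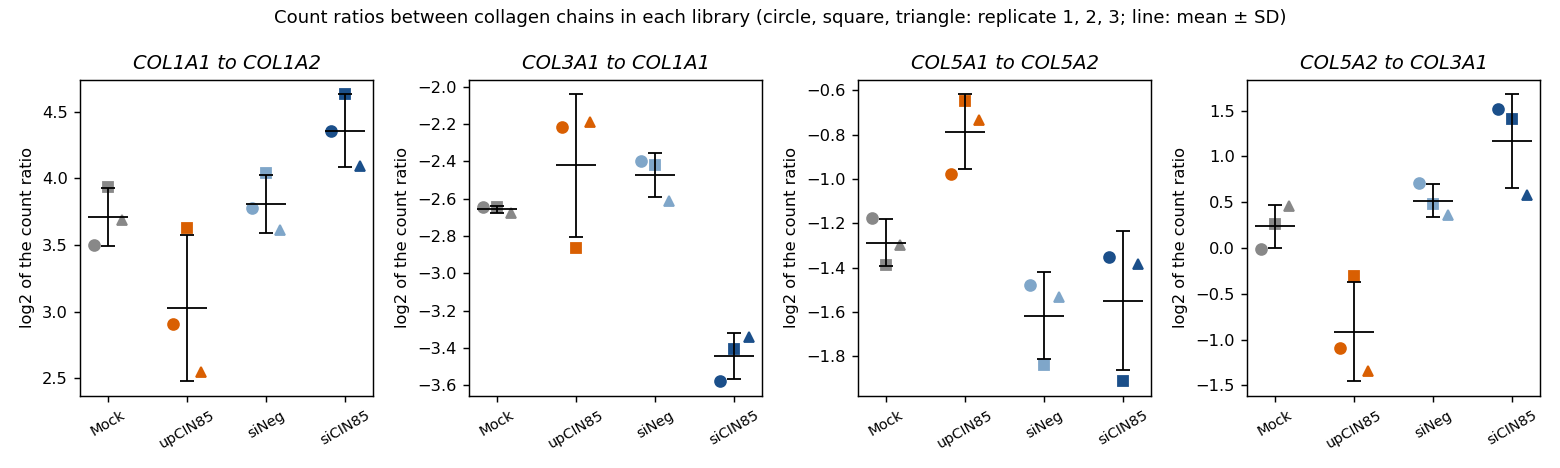
log2 of the count ratio (y axis, a separate range per panel) in each library for COL1A1 to COL1A2, COL3A1 to COL1A1, COL5A1 to COL5A2 and COL5A2 to COL3A1; symbols are replicates 1 to 3 and lines the mean ± SD (n = 3). COL3A1 to COL1A1 lay at -3.44 ± 0.123 in siCIN85 and -2.48 ± 0.118 in siNeg, and upCIN85 replicate 2 was the library of its group closest to Mock for COL1A1 to COL1A2 and COL5A2 to COL3A1.

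After the group means were taken away, COL1A1 and COL3A1 still varied together over the 12 libraries (Pearson r = 0.918, a description across libraries that share normalization), as did COL1A2 and COL3A1 (0.884) and COL5A1 and COL5A2 (0.867). COL11A1 followed COL5A2 (0.703) more than COL1A2 (-0.17), and COL5A3 ran against COL11A1 (-0.485). COL11A1 was lowest in replicate 3 of all 4 groups, by 0.68 to 0.90 log2 units below the group mean. With COL1A1 and COL3A1 the r of COL11A1 was 0.379 and 0.189, and COL1A1 and COL5A2 had an r of 0.723, so the types did not part cleanly.

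**Figure D5:**
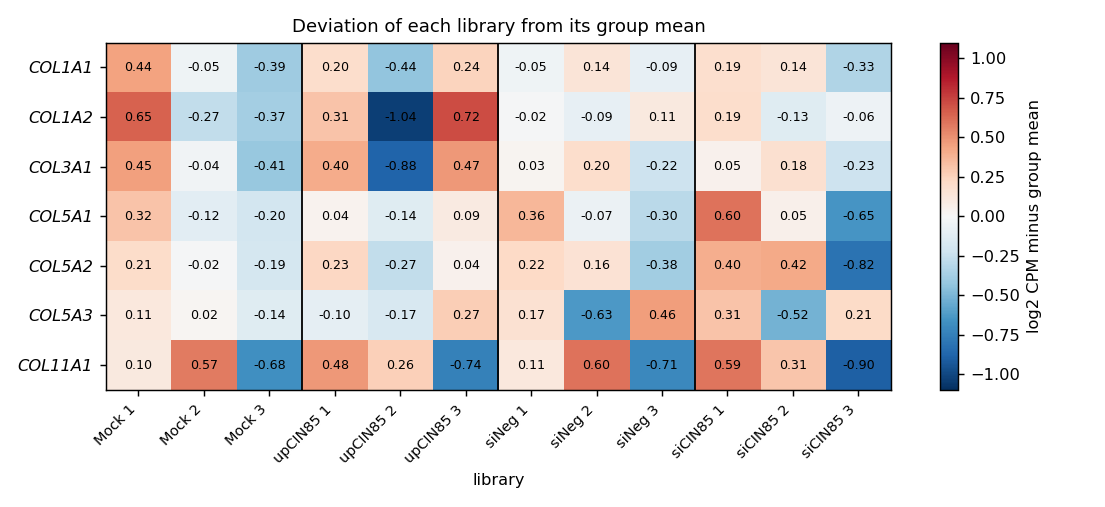
log2 CPM of each fibrillar collagen gene in each library minus its group mean (colour and printed value). upCIN85 replicate 2 was at -1.04 for COL1A2 and -0.88 for COL3A1, and COL11A1 was between -0.68 and -0.90 in replicate 3 of every group.

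The genes whose log2 CPM was most like that of COL3A1 over the 12 libraries, among 8953 genes with a mean of at least 10 CPM, were MAGEF1 (r = 0.968), COL1A1 (0.964), LITAF (0.961), SIPA1L2 (0.96) and ATXN10 (0.952). With group means removed their r was 0.832, 0.918, 0.788, 0.872 and 0.831. The genes most like COL1A1 were COL3A1 (0.964), COL1A2 (0.955), EIF4B (0.948), SIPA1L2 (0.948) and BEX3 (0.94). With group means removed their r was 0.918, 0.812, 0.908, 0.786 and 0.783, so genes outside the collagen family followed COL1A1 about as closely. Of these, LITAF fell in siCIN85 (log2FC -0.80, adjusted P 0.0253), while EIF4B stood at -0.17 (adjusted P 0.511) there and 0.14 (0.636) in upCIN85.

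Of the remaining 4 genes of the fibrillar family, COL27A1 alone passed the filter on low counts. COL2A1, COL11A2 and COL24A1, known from cartilage and developing bone, had at most 7 counts in any library and were not tested. COL27A1 measured 34.3 ± 4.18 CPM in Mock and 33.4 ± 9.16 in upCIN85, and 43.0 ± 9.89 in siNeg and 54.9 ± 12.1 in siCIN85, and its log2FC of 0.36 in the knockdown had the opposite sign to those of the 7 genes (adjusted P 0.414).

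The genes that process collagen mostly did not pass. In edgeR without a block, 1.23% of all genes passed in upCIN85, 1.04% in siCIN85, 0.526% between the controls and 0.973% in the difference. With the block in the knockdown, 3.42% passed in siCIN85 and 2.93% in the difference. Whole-table counts of the other fits are given at the end. The few calls in the lists below are a description and not a result about a list. Of 14 hydroxylases and chaperones of the endoplasmic reticulum 13 were tested, and none passed in any comparison (edgeR without a block, median log2FC -0.11 in upCIN85 and -0.06 in siCIN85). DESeq2 on 12 libraries called 1 in upCIN85 and 2 in siCIN85, all lower, and edgeR with the block in the knockdown called 1 in each, also lower. SERPINH1, the collagen chaperone, stood at 165 ± 14.2 CPM in siNeg and 171 ± 30.4 in siCIN85. None of the 6 procollagen export genes and none of the 5 tested propeptide cleavage genes passed in edgeR without a block (median log2FC in siCIN85 -0.19 and -0.66). With either the shared block or the block in the knockdown, 1 propeptide cleavage gene was called lower in upCIN85 and 1 in siCIN85.

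Of 5 crosslinking enzymes, LOXL1, a lysyl oxidase, passed in the difference of effects (1.01, adjusted P 0.0478). It measured 255 to 332 CPM in Mock and 258 to 445 in upCIN85, and 220 to 250 in siNeg and 124 to 171 in siCIN85, so that its knockdown libraries lay below the control while upCIN85 overlapped Mock. Of 4 tested fibril-associated collagens and proteoglycans, BGN, which encodes the small proteoglycan biglycan, went the other way. It fell from 34.9 ± 2.15 CPM in Mock to 18.6 ± 4.43 in upCIN85 (log2FC -0.91, adjusted P 0.0439) and stood at 25.8 ± 6.99 in siNeg and 34.4 ± 8.95 in siCIN85 (difference of effects -1.33, adjusted P 0.0463). The BGN call in upCIN85 was lost without any Mock library (adjusted P 0.109 to 0.168), upCIN85 replicate 1 (0.0837) or 3 (0.219) or siNeg replicate 2 (0.0537), with library totals (0.0567), with a minimum of 10 counts in every library (0.0519) and with thinning (0.0526). The differences for LOXL1 and BGN each held in 3 of 12 fits with 1 library left out, with adjusted P up to 0.147 without upCIN85 replicate 3 and up to 0.15 without siCIN85 replicate 1. Both were also lost with library totals (0.0502 and 0.0506), LOXL1 with thinning (0.0523) and BGN with a minimum of 10 counts (0.0515). None of 5 tested fibril nucleators and matricellular genes, FN1 and SPARC among them, passed in edgeR without a block. With the block in the knockdown, 2 were called lower in upCIN85, 2 lower in siCIN85 and 1 higher in siNeg than in Mock, and with the shared block 1 was called lower in upCIN85.

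Among 7 tested collagen receptors, ITGA2, a subunit of a collagen-binding integrin, rose from 9.42 ± 2.36 CPM in siNeg to 20.7 ± 7.33 in siCIN85 (log2FC 1.14, adjusted P 0.0413). ITGA1 and DDR1 passed between the controls, higher in siNeg than in Mock (log2FC 1.42, adjusted P 0.0261, and 0.74, adjusted P 0.0341). Of 5 tested genes that degrade fibrillar collagen, MMP1, the interstitial collagenase, rose from 6.53 ± 3.46 CPM in siNeg to 28.0 ± 7.39 in siCIN85 (log2FC 2.10, adjusted P 0.0321). The ITGA2 call held in 3 of 12 fits with 1 library left out (adjusted P up to 0.191, without siCIN85 replicate 3), and was lost in the 6 knockdown libraries alone (0.105) and with thinning (0.0688). The MMP1 call was lost without Mock replicate 2 (0.0512), siNeg replicate 1 (0.0572), 2 (0.173) or 3 (0.0652), or siCIN85 replicate 1 (0.174) or 3 (0.112), and in DESeq2 on 12 libraries (0.147). The ITGA1 and DDR1 calls were lost without any Mock library or siNeg replicate 1 or 2 (adjusted P 0.0801 to 0.174). MMP2, a gelatinase, stood at 8.01 ± 3.30 CPM in Mock and 17.7 ± 5.46 in upCIN85 (log2FC 1.15, adjusted P 0.0856). In the knockdown MMP2 stood at 6.98 ± 3.04 CPM in siNeg and 4.70 ± 1.86 in siCIN85, with overlapping libraries.

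Of 9 tested genes of the TGF-β pathway, a known inducer of collagen genes, SMAD4, the shared partner of its signal-carrying SMADs, fell from 60.3 ± 9.77 CPM in Mock to 20.7 ± 6.81 in upCIN85 (log2FC -1.54, adjusted P 0.0187) and stood at 72.7 ± 26.2 in siNeg and 67.9 ± 23.9 in siCIN85. ALPL, the alkaline phosphatase of osteoblasts, rose in upCIN85 from 5 to 6 counts per library in Mock to 16 to 23 (log2FC 1.76, adjusted P 0.034), 1 of 9 tested mesenchymal and osteoblast markers called by edgeR without a block. DESeq2 on 12 libraries gave ALPL no adjusted P and called 1 other marker higher and 1 lower. The SMAD4 call was lost without Mock replicate 2 (adjusted P 0.0631), Mock replicate 3 (0.0885) or upCIN85 replicate 3 (0.135). The ALPL call was lost without any Mock or upCIN85 library (adjusted P 0.0688 to 0.181) or siCIN85 replicate 1 (0.0509), in DESeq2 on 6 libraries without (0.0813) and with the block (0.272), and with thinning to the smallest library (0.0739).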

How the data were processed

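RNA of 12 HOS libraries (4 groups of 3) was made into libraries with a 3′ tag kit with unique molecular identifiers and sequenced as single-end reads. The authors deposited 1 table of raw counts per Ensembl gene. The submitters' processing notes name FastQC, cutadapt 4.3, STAR 2.7.3a, Picard 2.25.6, MultiQC 1.10.1, featureCounts of Subread 2.0 and the build GRCh38. Collapsing by identifier, the strand setting and the annotation release are not given in the sources used here. Of 25141 identifiers, 95 had no match in the GENCODE annotation used for symbols and positions. The 7 genes, the lists of related genes and the tests were chosen with earlier results of these data known.

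Genes were filtered with filterByExpr (minimum count 10, minimum total 15), which left 12542. The 4 groups were fitted together in edgeR 4.0.16 (R 4.3.3, limma 3.58.1) with TMM scaling and the quasi-likelihood test, and P-values were adjusted by Benjamini-Hochberg over all genes tested, with a threshold of 0.05. Log2 CPM used a prior count of 2. Scripts were tested on simulated data. Ratios were compared by two-sided exact permutation tests. Named were the 7 genes, SH3KBP1, each gene of the lists past the threshold in any of the 4 contrasts, and the 5 genes most like COL3A1 and COL1A1. COL27A1, COL2A1, COL11A2, COL24A1, SERPINH1, FN1, SPARC, MMP2, VIM, IBSP and EPCAM were named in addition, after their values were seen.

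Alternatives were DESeq2 1.42.0, the 6 libraries of a comparison alone, RLE scaling, library totals, other filters, thinning to the smallest library, replicate blocks and leaving out each library. Replicate numbers come from the labels. Deviations from group means correlated between same-numbered siNeg and siCIN85 libraries at 0.353, 0.269 and 0.446, so these were taken as paired. The labels give no other sign of pairing. Total counts were 3540641 to 6049458 per library, and no 2 libraries of the same group agreed within sampling noise.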

Additional observations from a re-analysis of the deposited data

Results flagged for a closer look

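The type I and type III chains were picked out because their effects differed between the plasmid and the siRNA experiment, by the contrast of all 4 groups in edgeR. COL1A2 differed by 2.61 log2 units, from 1.35 in upCIN85 against Mock and -1.26 in siCIN85 against siNeg. COL3A1 differed by 2.57, from 0.88 and -1.69. COL1A1 differed by 1.27, from 0.56 and -0.71. In RNA counts, SH3KBP1 itself was higher in upCIN85 than in Mock by only 0.07 log2 units. The part of the plasmid in these differences was not tested.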

How the results depend on the processing

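The log2FC of COL1A1, COL1A2, COL3A1, COL5A1, COL5A2 and COL5A3 kept its sign in upCIN85, in siCIN85 and in the difference of effects under every alternative run. Calls were less stable, and the causes were not tested. For COL1A2 in upCIN85 (1.35) the call was lost with 6 libraries alone (1.35), DESeq2 on 12 (1.34) or 6 libraries (1.34), DESeq2 with the replicate block (1.24) and thinning (1.32). It was 0.96 to 1.74 with 1 library left out, COL3A1 in siCIN85 was -1.80 to -1.60, and the differences were 1.09 to 1.52 for COL1A1 and 2.22 to 3.00 for COL1A2.

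Called member genes in upCIN85 (1) were 0 with 6 libraries, either DESeq2 fit, DESeq2 with the block or thinning, and 3 with no filter. In siCIN85 (1) they were 2 with 6 libraries, 5 with no filter, 3 in DESeq2 on 12 and 4 on 6 libraries, and in the difference (3) 5 with no filter. Whole-table counts in upCIN85 (154) were 281 with 6 libraries, 637 with no filter, 311 and 369 in DESeq2 on 12 and 6, and 97 thinned. In siCIN85 (131) they were 50, 617, 298 and 204, between controls (66) 376 with no filter and 183 and 182 in DESeq2, and in the difference (122) 554 and 269. List genes called by DESeq2 on 12 were 5 in upCIN85, 8 in siCIN85 and 4 in the difference. The number of genes tested changes with the filter and in DESeq2, so these values are counts and not shares.

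The replicate block shared by 12 libraries gave 383 genes and 9 list genes in upCIN85, 199, 5 and 3 member genes in siCIN85, 114 between controls, and 263 and 5 list genes in the difference. With the block in the knockdown only, the counts were 545 and 11, 429, 10 and 4 member genes, 216, and 368 and 7. Each Mock and upCIN85 library also correlated best with its own number (0.326, 0.227 and 0.0989). The labels give only replicate numbers for these and for the siRNA groups, so blocking the knockdown alone rested on these same data. Blocks within each experiment, chosen after seeing the data, gave 1035, 968, 588 and 918 of 12542 genes and 3, 5, 1 and 5 of the 7 member genes. DESeq2 with the block on 6 libraries gave 284 genes in upCIN85, and 300 and 5 member genes in siCIN85.

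With 1 library left out, whole-table counts were 25 to 260 in upCIN85, 9 to 362 in siCIN85, 7 to 134 between controls and 33 to 341 in the difference. Member counts were 0 to 3, 0 to 3, 0 and 1 to 3, and list genes 0 to 7, 0 to 5, 0 to 2 and 0 to 8. Values near 0 changed sign between the controls. COL5A3 was -0.0081 with library totals, -0.023 with the knockdown block or the blocks within each experiment, -0.020 in blocked DESeq2 and -0.022 thinned. COL11A1 was -0.011, -0.0030 with no filter and -0.072 with the knockdown block. Thinned, COL11A1 to COL5A1 stood at 0.0028 in upCIN85 and 0.069 between controls. With 1 library left out, the controls differed by -0.24 to 0.19 for COL1A1, -0.38 to 0.20 for COL1A2, -0.058 to 0.38 for COL3A1, -0.084 to 0.29 for COL5A1, -0.21 to 0.30 for COL5A3 and -0.30 to 0.35 for COL11A1. COL11A1 ran from -0.18 to 0.41 in upCIN85, -0.53 to 0.11 in siCIN85 and -0.018 to 0.62 in the difference. Left-out ratios changed sign for COL11A1 to COL5A1 (-0.42 to 0.25 between controls, -0.30 to 0.35 in upCIN85), COL5A1 to COL5A2 in siCIN85 (-0.044 to 0.25), and between controls for COL1A1 to COL1A2 (-0.015 to 0.21), COL5A1 to COL1A1 (-0.073 to 0.24) and COL5A3 to COL5A1 (-0.52 to 0.14). COL5A3 rested on 16 to 89 counts per library, which limits its precision.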
